A study of Mus musculus with 12 samples.

Results

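The genes described here are the enzymes and regulators that copy the genome, from the MCM helicase to the enzymes that supply nucleotides. They were taken as a fixed list of 48 mouse genes of DNA replication and S phase, and 47 of them had a probe set that matches 1 gene, out of 18193 genes measured that way. Chaf1a, a subunit of the chromatin assembly factor, had none and is not analysed here. Where a gene had several probe sets, the brightest by its mean over all arrays was read, and values are log2 intensities. The cells were C790, an Nras-mutant mouse melanoma line. All of them carried a doxycycline-inducible lentivirus with Oct4, Sox2, Klf4 and a blasticidin resistance gene, plus a second lentivirus for the transactivator and mCherry. The +dox cells received doxycycline and were partially reprogrammed, and the −dox cells, which held both vectors without induction, were the control. Both were taken at day 20 and had been kept for 72 h in DMSO, the vehicle, or in trametinib, which inhibits the kinases MEK1 and MEK2. Each of the 4 groups has 3 arrays. The dose of trametinib given to these cells is not given in the sources used here.

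A cell prepares its origins in G1, when the origin recognition complex, Cdc6 and Cdt1 load the MCM helicase onto DNA. At the start of S phase the Cdc7-Dbf4 kinase and cyclin-dependent kinases switch the helicase on, and polymerases, the sliding clamp and its loader follow the opened fork. Many of these genes are transcribed by E2F factors, which the retinoblastoma protein holds back until cyclin D and cyclin E kinases phosphorylate it, and growth factor signalling through RAS, MEK and ERK feeds cyclin D in many cell types, melanoma included.

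The promoters of the members were searched for E2F-type words, whether or not a gene moved with the drug. The words were TTTCCCGC, TTTCGCGC, TTTGCCGC and TTTGGCGC on both strands, in windows of 300 bases from 250 before to 50 after a RefSeq gene start (assembly GRCm38.p6). A word and the reverse complement of another can overlap, as in TTTGGCGCGAAA, and both were then counted. Of the 47 measured members, 39 had at least 1 window and 8 had none. These 39 genes have 48 windows, since some have several starts, and a word stood in 16 of them (33.3%), against 744 of 32851 windows of all genes (2.26%). Members' windows were richer in CpG, with a median of 22.5 CpG against 7 over all windows, and among windows at or above the members' lower quartile of 12.75 CpG the shares were 41.7% of 36 and 4.82% of 12454. The CCAAT box (CCAAT) stood in 54.2% of the members' windows and 37.4% of all windows, and the CHR words TTTGAA and TTCGAA in 20.8% and 19.2%. Among windows at or above 12.75 CpG the shares were 52.8% and 35.3% for the CCAAT box and 16.7% and 10.6% for the CHR words. In 10 of the 16 genes a word lay upstream of the start. The stretches of 7 of these, picked by hand, are printed 5′ to 3′ on the gene's own strand, with the words in capitals. They are examples of the same few letters before genes of different roles. They lie wholly upstream of the start that their window was built on. In 23 of the members' 48 windows that start was a boundary of the gene as listed in RefSeq. Mcm5 and Mcm6 are helicase subunits, Cdc6 and Orc1 load the helicase, Pola1 is the catalytic subunit of polymerase alpha, Uhrf1 recruits the maintenance DNA methyltransferase, and Cdc25a is a phosphatase that activates CDK2.
Mcm5: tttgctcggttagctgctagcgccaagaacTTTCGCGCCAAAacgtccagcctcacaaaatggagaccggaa
Mcm6: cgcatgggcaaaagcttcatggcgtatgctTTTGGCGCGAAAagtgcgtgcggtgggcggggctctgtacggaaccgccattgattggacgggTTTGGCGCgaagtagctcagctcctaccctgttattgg
Cdc6: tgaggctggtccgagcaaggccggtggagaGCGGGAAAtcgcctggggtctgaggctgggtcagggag
Orc1: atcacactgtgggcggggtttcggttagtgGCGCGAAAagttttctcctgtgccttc
Pola1: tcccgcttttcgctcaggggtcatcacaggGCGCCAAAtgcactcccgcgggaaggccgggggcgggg
Uhrf1: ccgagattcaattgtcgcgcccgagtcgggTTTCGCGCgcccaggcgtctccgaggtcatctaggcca
Cdc25a: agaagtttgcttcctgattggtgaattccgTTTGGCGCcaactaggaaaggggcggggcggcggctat
In the same order they are chr8:75109326-75109397 on the plus strand, chr1:128359715-128359845 on the minus strand, chr11:98907983-98908050 on the plus strand, chr4:108579397-108579453 on the plus strand, chrX:93632256-93632323 on the minus strand, chr17:56304098-56304165 on the plus strand and chr9:109875482-109875549 on the plus strand. A match of letters is a description of the sequence and not evidence of binding. The shares of windows above describe the list of genes and do not draw on its response to the drug. The genes shown did not move alike: Mcm5, Mcm6, Cdc6, Pola1 and Uhrf1 fell with trametinib in both cell states, Cdc25a fell in +dox cells alone by the test, and Orc1 passed no test. With trametinib, 14 of the 16 genes with a word and 19 of the 23 without fell in −dox cells, and 14 and 15 in +dox cells. The median log2 changes were -1.79 with a word and -1.56 without in −dox cells, and -1.53 and -1.15 in +dox cells.

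The arrays were checked against a background level and with genes that are no members. The background level was set at a log2 value of 4.87, the 95th percentile of 84 probe sets that match receptors of smell, taste and the vomeronasal organ. Of the 47 members, 44 were above it on all 12 arrays, Cdc6 and Cdc7 on 10 and Tyms on 2. All 10 listed genes of ERK output, which report the activity of the pathway that trametinib blocks, fell in both cell states, and the log2 change of Dusp6 was -6.90 with dox. In −dox cells, where its trametinib mean was under background, the DMSO mean was higher by a log2 difference of at least 7.19. Of 7 melanocyte genes Mitf, Pmel and Sox10 were above background on all arrays, while Tyr, Tyrp1, Dct and Mlana, the pigment enzymes and a melanosome protein, were above it on 0 of 12. Of 4 measured leukocyte genes Cd3e and Cd68 were above background on all 12 arrays, Itgam on 2 and Ptprc on 0. Itgam and Cd68 had their highest group means under +dox DMSO, and Cd3e and Ptprc did not. Itgam was at 5.60 there and at 3.15 to 3.72 in the other groups, and Cd68 at 7.79 and at 6.05 to 6.73. Of the keratinocyte genes Krt5 was above it on 7 arrays and Krt14 and Krt1 on 0, and the endothelial genes Pecam1 and Cdh5 were above it on 0. Of 4 fibroblast genes Col1a1, Dcn and Pdgfra were above it on all arrays and Thy1 on 0, and their level moved with both factors. Summed over the 4 genes, it ran from 10.14 to 10.49 under −dox DMSO, 11.31 to 11.35 under −dox trametinib, 7.99 to 8.60 under +dox DMSO and 10.24 to 10.36 under +dox trametinib (log2 of the sum). Dcn had group means of 8.53 and 9.98 in −dox and 6.30 and 9.63 in +dox cells, DMSO first, and Pdgfra of 8.71 and 7.75, and 6.64 and 6.55. The part of the leukocyte and fibroblast genes in the results was not tested. Of the reprogramming factors Sox2 had lower means in +dox cells (group means of 7.40 and 6.95 in −dox and 5.87 and 6.10 in +dox cells). Klf4 was not higher there (9.45 and 10.04, and 9.30 and 10.02). Oct4 (Pou5f1) was at 4.63, under background, and 5.50 in −dox and at 5.45 and 5.88 in +dox cells. The study itself reports raised Sox2 in reprogrammed C790 cells at day 20 by quantitative PCR. Whether these probe sets read the copies on the vector was not tested, so they do not show whether induction worked. RNA came from whole cultures, so fewer cells in S phase and less RNA per cell cannot be told apart. The study describes its data in general as coming from independent experiments, and no label ties an array to a culture. If arrays of a group shared a culture, the p-values here cover technical spread alone.

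Array by array, the program separated the drug from the vehicle. For each array, the deviation of each member from its own mean over the 12 arrays was taken, and the median over the 47 members was read. It was 0.39, 0.80 and 0.73 on the −dox DMSO arrays, -0.74, -0.99 and -1.21 on the −dox trametinib arrays, 0.56, 1.18 and 0.73 on the +dox DMSO arrays, and -0.51, 0.07 and -0.89 on the +dox trametinib arrays. All 6 DMSO arrays lay above all 6 trametinib arrays, and the array nearest to the DMSO groups was replicate 2 of the +dox trametinib group.

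**Figure D1:**
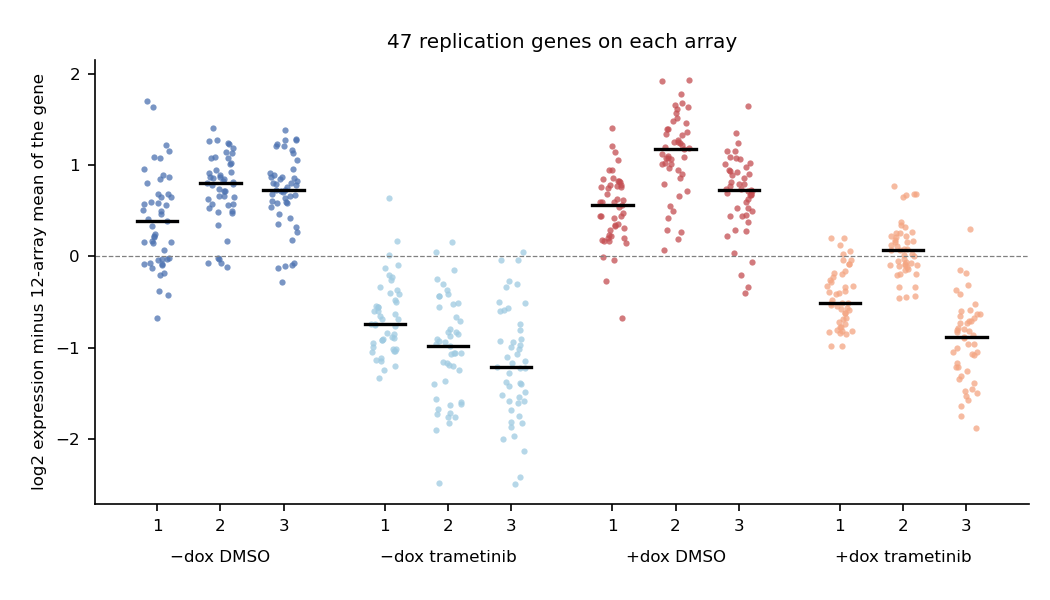
Each point is 1 of 47 replication genes on 1 array, as its log2 expression minus its own mean over the 12 arrays; the x axis gives the replicate number within each of the 4 groups and the black bars are medians. The bars of the 6 DMSO arrays lie between 0.39 and 1.18 and those of the 6 trametinib arrays between -1.21 and 0.07.

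The members also moved together within groups. On +dox trametinib replicate 2 all 47 were above the mean of their group, and on replicate 3 only 1 was, while replicate 1 had 21 above and 26 below. Under +dox DMSO, 46 members were above the group mean on replicate 2 and 1 on replicate 1. In −dox cells 41 members were below the group mean on DMSO replicate 1, an array with a low quality weight of 0.195 in limma on which 12587 of all 18193 genes were below theirs, and 42 were above it on trametinib replicate 1. The median over the members of the SD within a group was 0.24 under −dox DMSO, 0.32 under −dox trametinib, 0.34 under +dox DMSO and 0.49 under +dox trametinib, against 0.17, 0.14, 0.15 and 0.14 over all genes. The members therefore spread more between replicates than genes at large did in every group, by the largest margin under +dox trametinib. Genes at large include those under background, since 12453 of the 18193 had a group mean above it. The comparison was not matched for level, and the part of level in it was not tested. The 24 measured mitosis genes of a comparison list ordered the +dox trametinib arrays the same way, with medians of -0.72, 0.23 and -1.25. The 10 ERK output genes were at -1.99, -1.42 and -1.73, so they too were highest on replicate 2, but they were lowest on replicate 1.

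Trametinib lowered most of the program in both cell states. In −dox cells 40 of 47 members fell at an adjusted p under 0.05 in limma with Benjamini-Hochberg adjustment over all genes, and 0 rose, with 42 lower and 0 higher at an unadjusted p under 0.05. Among all genes 10.8% were called lower and 11.6% higher. In +dox cells 36 members fell and 0 rose, with 38 lower and 1 higher unadjusted, where 12.5% of all genes were called lower and 13.8% higher. A fall over 2-fold as well was met by 34 members in −dox cells (4.48% of all genes) and 31 in +dox cells (4.9%). The median log2 change was -1.59 in −dox and -1.28 in +dox cells, against 0.06 and 0.02 over all genes. The trametinib arrays lay wholly below the DMSO arrays for 42 members in −dox cells, where 15.2% of all genes did, and for 38 in +dox cells, where 18.6% did. The comparisons take their group means from different arrays but share an estimate of the spread made from all 12, so their tests are not independent. In both of them 35 members fell. Pcna, Rrm2, E2f2, Dbf4 and Chaf1b passed the test in −dox cells alone, Cdc25a in +dox cells alone, and Orc1, Fen1, Tyms, Ccne1, Ccne2 and E2f1 in neither.

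**Figure D2:**
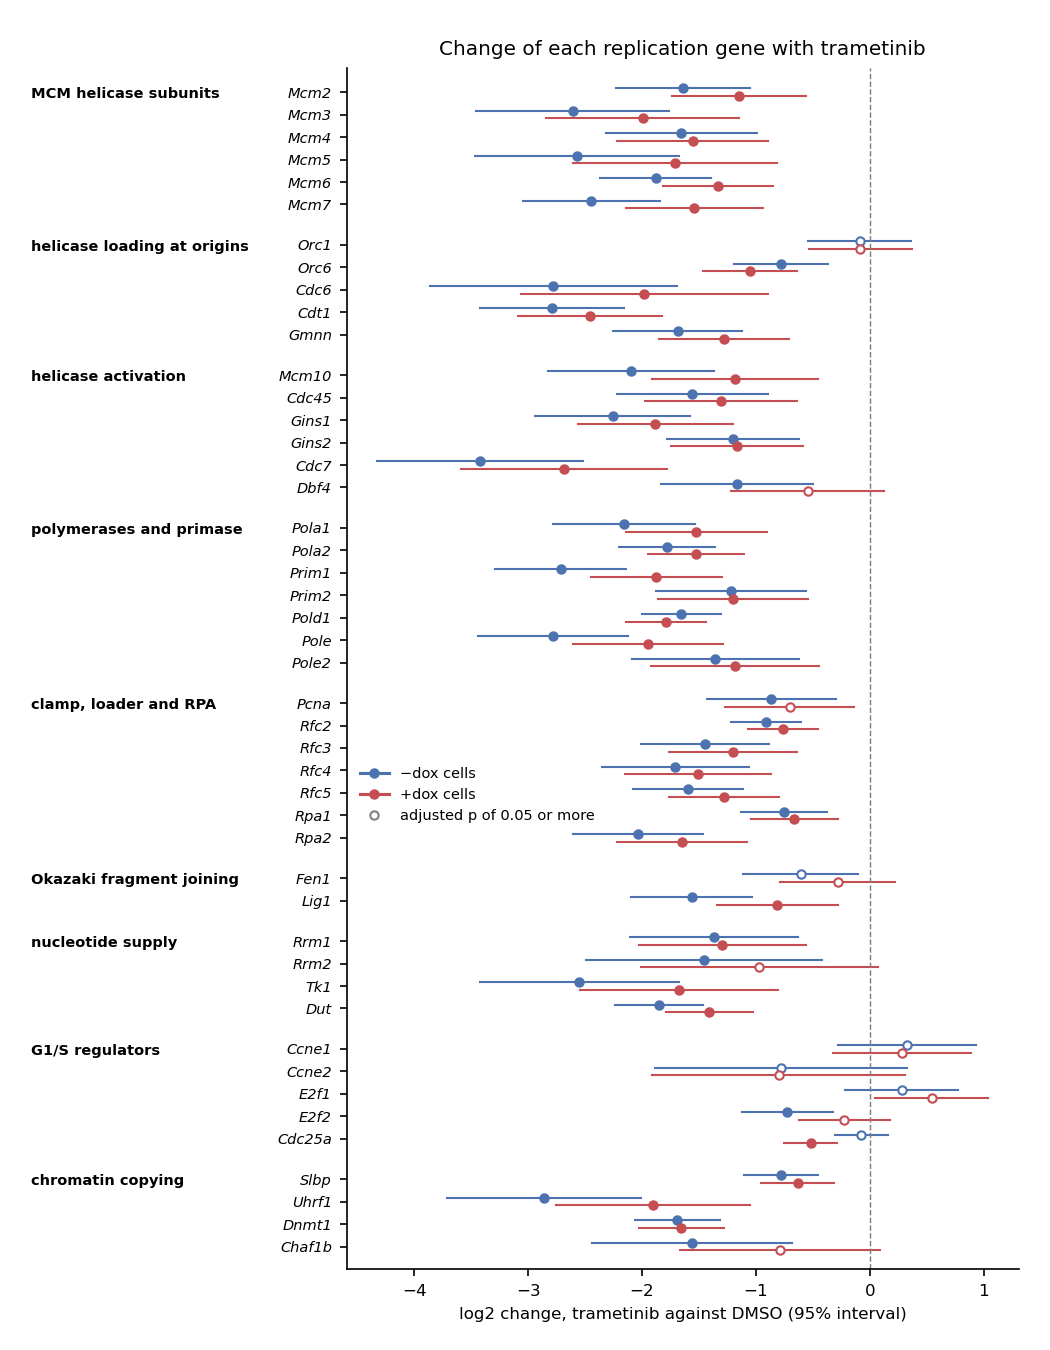
Log2 change of 46 replication genes between trametinib and DMSO with its 95% interval from limma, grouped by role, in −dox cells (blue) and +dox cells (red); open circles did not pass an adjusted p of 0.05. Tyms, under background in all groups, is left out, and the −dox value of Cdc6 is the fitted one although its trametinib mean was under background. All helicase subunits and polymerases are filled and left of 0 in both cell states, while 4 of the 5 G1/S regulators in each state are open.

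All 6 subunits of the MCM helicase, the ring that unwinds DNA ahead of the fork, fell in both cell states. Their log2 changes ran from -2.61 to -1.64 in −dox and from -1.99 to -1.15 in +dox cells. Mcm3 changed most. Its log2 expression was 9.53, 10.20 and 10.21 under −dox DMSO, 7.89, 7.30 and 6.93 under −dox trametinib, 9.88, 10.57 and 10.09 under +dox DMSO and 8.11, 9.05 and 7.40 under +dox trametinib. Its trametinib arrays were below all DMSO arrays of either cell state, and its log2 change was -2.61 (95% interval -3.45 to -1.76, adjusted p = 0.00076) in −dox and -1.99 (-2.84 to -1.15, adjusted p = 0.0027) in +dox cells. Mcm2 changed least, at 9.98, 10.34 and 10.31 under −dox DMSO, 8.65, 8.50 and 8.55 under −dox trametinib, 9.80, 10.50 and 10.18 under +dox DMSO and 8.98, 9.65 and 8.41 under +dox trametinib. Here the highest trametinib array of the +dox cells, replicate 2, came within 0.15 of the lowest DMSO array of those cells, and the log2 changes were -1.64 (-2.23 to -1.06) and -1.15 (-1.73 to -0.56).

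Of the 5 genes that load the helicase at origins, 4 fell in both cell states. Cdt1, which brings MCM to the origin, was at 10.94, 10.95 and 10.95 under −dox DMSO, 8.60, 8.12 and 7.74 under −dox trametinib, 10.93, 11.33 and 11.07 under +dox DMSO and 8.73, 9.26 and 7.97 under +dox trametinib. Its −dox DMSO arrays lay within 0.01 of each other and far above every trametinib array, and its log2 change was -2.79 (adjusted p = 0.00011) in −dox and -2.46 (adjusted p = 0.00013) in +dox cells. Cdc6, the ATPase that works with Cdt1, was at 6.89, 7.79 and 7.66 under −dox DMSO, 5.44, 4.67 and 3.89 under −dox trametinib, 7.17, 8.31 and 7.63 under +dox DMSO and 5.53, 6.71 and 4.93 under +dox trametinib. Its mean under −dox trametinib was below background, so its fall in −dox cells is given as at least 2.58 on the log2 scale, and in +dox cells it fell by 1.98 (adjusted p = 0.011). Gmnn, the inhibitor of Cdt1 that keeps origins from firing again, fell with them, with log2 changes of -1.69 and -1.28. Orc6, the smallest subunit of the origin recognition complex, fell by 0.78 in −dox and fell by 1.05 in +dox cells.

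Orc1, the ATPase of the origin recognition complex, was the exception of this group on the probe set used. It read 6.15, 5.69 and 5.48 under −dox DMSO, 5.78, 5.46 and 5.81 under −dox trametinib, 6.05, 6.03 and 5.42 under +dox DMSO and 5.89, 5.78 and 5.58 under +dox trametinib. The groups overlapped throughout, and the log2 change was -0.09 (-0.54 to 0.36, adjusted p = 0.80) in −dox and -0.08 (-0.53 to 0.37, adjusted p = 0.83) in +dox cells. A second probe set for Orc1, with a lower mean of 5.33 against 5.76, read 5.63, 5.88 and 5.78 under −dox DMSO, 5.18, 4.95 and 3.84 under −dox trametinib, 5.27, 6.73 and 6.0 under +dox DMSO and 5.12, 5.46 and 4.09 under +dox trametinib. On it the −dox groups did not overlap and the +dox groups did. The −dox trametinib mean was under background, so the −dox DMSO mean was at least 0.89 higher on the log2 scale, and the +dox log2 change was -1.11. Neither passed the test over all probe sets (adjusted p = 0.12 and 0.11). The 2 probe sets disagreed, and which of them follows the Orc1 transcript was not tested.

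The genes that turn the loaded helicase on held the largest fall of the whole list on the probe sets used. Cdc7, the kinase that phosphorylates MCM, was at 8.69, 8.19 and 8.43 under −dox DMSO, 5.85, 4.56 and 4.63 under −dox trametinib, 8.46, 8.98 and 8.70 under +dox DMSO and 6.06, 6.85 and 5.17 under +dox trametinib. On 2 of the 3 −dox trametinib arrays it was under the background level of 4.87. The log2 changes were -3.42 (-4.33 to -2.52, adjusted p = 0.00023) in −dox and -2.69 (-3.59 to -1.78, adjusted p = 0.00067) in +dox cells. A second probe set for Cdc7, above background on all 12 arrays, gave smaller log2 changes of -1.28 (adjusted p = 0.00044) in −dox and -1.45 (adjusted p = 0.00014) in +dox cells. The activating subunit Dbf4 changed least of this group, with 9.35, 10.23 and 10.09 under −dox DMSO, 9.13, 8.53 and 8.51 under −dox trametinib, 10.21, 10.76 and 10.33 under +dox DMSO and 9.93, 10.41 and 9.32 under +dox trametinib. The −dox groups did not overlap and the +dox groups did, since replicate 2 of the +dox trametinib group was above DMSO replicates 1 and 3. Dbf4 fell by 1.17 in −dox cells (adjusted p = 0.018), and its log2 change in +dox cells was -0.55 (-1.22 to 0.12, adjusted p = 0.24). Mcm10, Cdc45, Gins1 and Gins2, which complete the active helicase, fell in both states, and their log2 changes ran from -2.26 to -1.20 in −dox and from -1.88 to -1.17 in +dox cells.

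**Figure D3:**
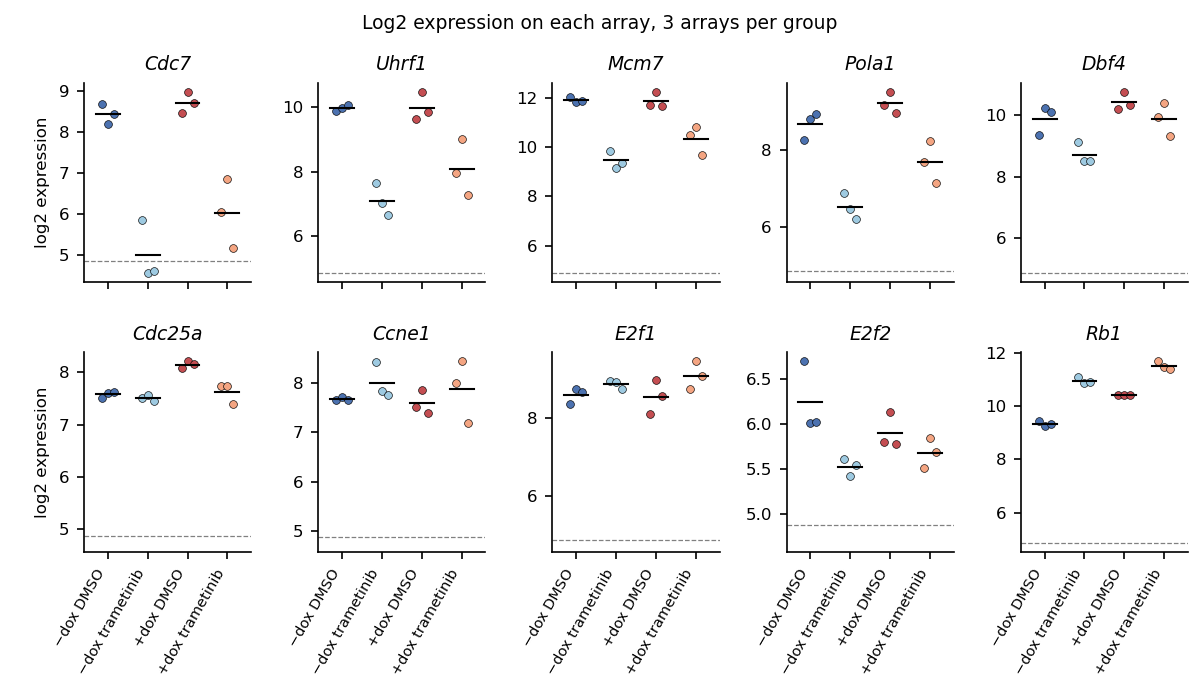
Log2 expression of 9 replication genes and of Rb1 on each of the 12 arrays (points, 3 per group) with the group mean (black bar) and the background level of 4.87 (dashed line); each panel has its own y axis, and genes cannot be compared in level. Cdc7, Uhrf1, Mcm7 and Pola1 drop under trametinib in both cell states, Ccne1 and E2f1 do not, and Rb1 is higher on every trametinib array than on any DMSO array of the same cell state.

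All 7 polymerase and primase genes fell in both cell states. Pole, the catalytic subunit of the leading-strand polymerase, was at 8.78, 8.83 and 8.83 under −dox DMSO, 6.36, 5.79 and 5.95 under −dox trametinib, 8.56, 9.48 and 8.79 under +dox DMSO and 6.98, 7.63 and 6.38 under +dox trametinib. The DMSO arrays were at least 0.93 above every trametinib array, and the log2 changes were -2.78 (adjusted p = 0.00014) and -1.95 (adjusted p = 0.00071). Prim1, the subunit of primase that makes the RNA primer, was at 9.94, 10.41 and 10.34 under −dox DMSO, 7.88, 7.37 and 7.30 under −dox trametinib, 10.19, 10.49 and 10.29 under +dox DMSO and 8.35, 9.08 and 7.92 under +dox trametinib. It fell by 2.71 in −dox and fell by 1.87 in +dox cells, and again replicate 2 was the highest of the +dox trametinib arrays. Its partner Prim2, which changed least of these genes in −dox cells, was at 7.80, 8.81 and 8.68 under −dox DMSO, 7.21, 7.46 and 6.96 under −dox trametinib, 8.31, 8.97 and 8.42 under +dox DMSO and 7.30, 7.86 and 6.93 under +dox trametinib. The groups did not overlap in either cell state, and the log2 changes were -1.22 (-1.88 to -0.56) and -1.20 (-1.86 to -0.54). The log2 changes in −dox and +dox cells were -1.65 and -1.79 for Pold1, the catalytic subunit of the lagging-strand polymerase, -2.16 and -1.52 for Pola1, -1.78 and -1.53 for Pola2, its regulatory subunit, and -1.36 and -1.18 for Pole2, a subunit of the leading-strand polymerase.

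Of the clamp, its loader and the single-strand binding proteins, the test called 7 of 7 lower in −dox and 6 in +dox cells. Their median log2 changes were -1.45 and -1.20. Rpa2, a subunit of the single-strand binding protein RPA, was at 9.24, 9.48 and 9.46 under −dox DMSO, 7.82, 7.22 and 7.04 under −dox trametinib, 9.33, 9.92 and 9.60 under +dox DMSO and 7.91, 8.49 and 7.51 under +dox trametinib. It fell by 2.03 (adjusted p = 0.00033) in −dox and fell by 1.65 (adjusted p = 0.00079) in +dox cells, with no overlap of groups. Rpa1, the large subunit of the same protein, was at 11.28, 11.70 and 11.59 under −dox DMSO, 10.64, 10.88 and 10.79 under −dox trametinib, 11.27, 11.68 and 11.35 under +dox DMSO and 10.86, 11.03 and 10.42 under +dox trametinib. The log2 changes were -0.75 (-1.14 to -0.37) and -0.66 (-1.05 to -0.28), and the change was under 2-fold in both states although the groups did not overlap. Pcna, the sliding clamp, fell by 0.87 in −dox cells (adjusted p = 0.033). Its log2 change in +dox cells was -0.70 (adjusted p = 0.068, and 0.036 blocking on the replicate number). The loader subunits Rfc2, Rfc3, Rfc4 and Rfc5 fell in both states. In that order their log2 changes were -0.91, -1.45, -1.71 and -1.59 in −dox cells, and in +dox cells -0.76, -1.20, -1.51 and -1.28.

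Of the enzymes that finish Okazaki fragments, the ligase fell and the flap nuclease did not pass the test with all 12 arrays, no block and no array weights. Lig1 was at 10.57, 10.77 and 10.75 under −dox DMSO, 9.45, 8.94 and 9.01 under −dox trametinib, 10.34, 11.18 and 10.61 under +dox DMSO and 9.95, 10.28 and 9.46 under +dox trametinib. It fell by 1.56 (adjusted p = 0.00096) in −dox and fell by 0.81 (adjusted p = 0.028) in +dox cells, and the +dox call ended when any 1 of 4 arrays was left out (adjusted p up to 0.11): +dox DMSO replicates 2 and 3 and +dox trametinib replicates 1 and 3. Fen1, the nuclease, was at 9.94, 10.32 and 10.24 under −dox DMSO, 9.84, 9.46 and 9.38 under −dox trametinib, 9.96, 10.69 and 10.01 under +dox DMSO and 9.89, 10.32 and 9.60 under +dox trametinib. Its −dox groups did not overlap, but by 0.10 only, and its +dox groups did overlap. The log2 changes were -0.61 (-1.11 to -0.10, adjusted p = 0.085) and -0.28 (-0.79 to 0.22, adjusted p = 0.45). Without +dox DMSO replicate 2 the −dox value of Fen1 passed (adjusted p = 0.047). With all 12 arrays it passed blocking on the replicate number (adjusted p = 0.049) and with array weights.

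Among the genes of nucleotide supply, Tk1, Dut and Rrm1 fell in both states. Tk1, the thymidine kinase of the salvage pathway, was at 9.98, 10.33 and 10.30 under −dox DMSO, 8.05, 7.41 and 7.50 under −dox trametinib, 9.68, 10.75 and 9.83 under +dox DMSO and 8.27, 9.35 and 7.61 under +dox trametinib. The log2 changes were -2.55 (adjusted p = 0.00098) and -1.68 (adjusted p = 0.0085), and the +dox trametinib arrays ranged over 1.74. For Dut, which removes dUTP, they were -1.85 and -1.41, and for Rrm1, the large subunit of ribonucleotide reductase, -1.37 and -1.29. A second probe set for Rrm1, above background on all 12 arrays, gave -1.19 and -1.28. It did not pass the test over all probe sets in either state (adjusted p = 0.082 and 0.057). Rrm2, its small subunit, fell by 1.45 in −dox cells (adjusted p = 0.047), and its +dox value was -0.97 (-2.01 to 0.07, adjusted p = 0.17). The −dox call of Rrm2 was lost on leaving out any 1 of 8 arrays (adjusted p up to 0.14). Averaging its probe sets or centring arrays on their medians removed this call too. In the test over all probe sets, the one used for Rrm2 had an adjusted p of 0.057 in −dox cells. Its other probe sets, above background on all 12 arrays, had log2 changes of -1.37 and -1.43 there (adjusted p = 0.068 and 0.11). Tyms, thymidylate synthase, was at 5.97, 4.23 and 4.19 under −dox DMSO, 3.72, 3.55 and 3.67 under −dox trametinib, 4.61, 5.21 and 4.71 under +dox DMSO and 3.75, 3.93 and 3.63 under +dox trametinib. All 4 group means were under background, so no fold is given. A probe set that matches both Tyms and its pseudogene, looked at after the data were seen, had group means of 8.82 and 7.87 in −dox and 8.81 and 7.80 in +dox cells, DMSO first.

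The genes that keep chromatin in step with the fork fell as well, 4 of 4 measured in −dox and 3 in +dox cells. Uhrf1 was at 9.87, 9.97 and 10.07 under −dox DMSO, 7.65, 7.02 and 6.65 under −dox trametinib, 9.63, 10.47 and 9.85 under +dox DMSO and 7.95, 9.0 and 7.28 under +dox trametinib. It fell by 2.86 (adjusted p = 0.00046) in −dox and fell by 1.91 (adjusted p = 0.0036) in +dox cells, where replicate 2 was again the highest trametinib array. Dnmt1, the maintenance methyltransferase that Uhrf1 recruits, had log2 changes of -1.69 and -1.66. Slbp, which binds the stem-loop of histone messages, was at 10.52, 10.84 and 10.95 under −dox DMSO, 10.11, 10.00 and 9.86 under −dox trametinib, 10.57, 10.79 and 10.66 under +dox DMSO and 10.09, 10.25 and 9.78 under +dox trametinib. The groups did not overlap, and the log2 changes were -0.78 (-1.10 to -0.46) and -0.63 (-0.95 to -0.31). Chaf1b, a subunit of the chromatin assembly factor, fell by 1.56 in −dox cells, and its +dox value was -0.79 (adjusted p = 0.19).

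Of 5 regulators of the G1 to S transition, 1 fell by the test in each cell state, E2f2 in −dox and Cdc25a in +dox cells. In either state 0 rose, with 0 higher in −dox and 1 higher in +dox cells at an unadjusted p under 0.05. Over all genes 10.8% were called lower and 11.6% higher in −dox cells, and 12.5% and 13.8% in +dox cells. The count of 1 in 5 thus does not set these regulators below genes at large. Cyclin E1 (Ccne1), the activating partner of CDK2, was at 7.66, 7.72 and 7.66 under −dox DMSO, 8.43, 7.84 and 7.75 under −dox trametinib, 7.52, 7.86 and 7.39 under +dox DMSO and 7.99, 8.44 and 7.19 under +dox trametinib. In −dox cells all trametinib arrays of Ccne1 were above all DMSO arrays. Ccne1 was the only member of which this was true, where it was true of 3712 of all 18193 genes. The log2 change of Ccne1 in −dox cells, 0.33 (-0.28 to 0.94, adjusted p = 0.45), did not pass, and in +dox cells it was 0.28 (-0.33 to 0.89, adjusted p = 0.54). Cyclin E2 (Ccne2) was at 6.69, 7.93 and 7.96 under −dox DMSO, 7.27, 6.51 and 6.46 under −dox trametinib, 7.53, 8.38 and 8.08 under +dox DMSO and 7.43, 8.14 and 6.02 under +dox trametinib. Its groups overlapped in both states, and the log2 changes were -0.78 (-1.89 to 0.33) and -0.80 (-1.91 to 0.31).

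The transcription factor E2f1 was at 8.35, 8.75 and 8.66 under −dox DMSO, 8.94, 8.93 and 8.73 under −dox trametinib, 8.09, 8.96 and 8.57 under +dox DMSO and 8.73, 9.45 and 9.07 under +dox trametinib. Its groups overlapped in both states, with log2 changes of 0.28 (-0.21 to 0.77, adjusted p = 0.43) in −dox and 0.54 (0.05 to 1.04, adjusted p = 0.10) in +dox cells. Blocking on the replicate number, the +dox value passed (adjusted p = 0.026). E2f2, a second activating E2F, was at 6.71, 6.01 and 6.02 under −dox DMSO, 5.61, 5.42 and 5.54 under −dox trametinib, 5.80, 6.13 and 5.78 under +dox DMSO and 5.51, 5.84 and 5.69 under +dox trametinib. It fell by 0.72 in −dox cells (adjusted p = 0.015), where DMSO replicate 1 was the highest of all arrays, and its +dox value was -0.22 (-0.63 to 0.18). Cdc25a was at 7.51, 7.60 and 7.62 under −dox DMSO, 7.51, 7.56 and 7.44 under −dox trametinib, 8.07, 8.21 and 8.15 under +dox DMSO and 7.74, 7.74 and 7.40 under +dox trametinib. In −dox cells its groups overlapped, with a log2 change of -0.07 (-0.31 to 0.16, adjusted p = 0.68), and in +dox cells it fell by 0.52 (-0.75 to -0.28, adjusted p = 0.0038).

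Further genes of the pathway that are no members gave a wider view. Of 37 more replication genes 35 were measured, and 24 fell and 0 rose in −dox cells, and 23 fell and 0 rose in +dox cells, with median log2 changes of -1.02 and -0.76 and 1 gene higher at an unadjusted p under 0.05 in each state. By the mean of both comparisons, the falls were largest in Exo1, a nuclease (-2.72 and -2.25), Hells, a chromatin remodeller (-2.80 and -2.15), Timeless, of the fork protection complex (-2.85 and -1.84), and Dscc1, of an alternative clamp loader (-2.64, and -1.09 with an adjusted p of 0.20 in +dox cells). Of 24 genes of E2F, pocket protein and CDK2 control, 11 fell and 1 rose in −dox cells, and 10 fell and 3 rose in +dox cells. Over all genes the test called 10.8% lower and 11.6% higher in −dox cells, and 12.5% and 13.8% in +dox cells. Rises were thus no more common in this list than over all genes. The genes of the list that fell most were Dtl, Ccna2, E2f8 and E2f7. Their log2 changes ran from -2.67 to -2.32 in −dox and from -1.98 to -1.62 in +dox cells. The retinoblastoma gene Rb1 rose in both states. It was at 9.42, 9.24 and 9.32 under −dox DMSO, 11.08, 10.88 and 10.89 under −dox trametinib, 10.40, 10.40 and 10.40 under +dox DMSO and 11.67, 11.47 and 11.38 under +dox trametinib, with no overlap between drug and vehicle, and its log2 change was 1.62 (1.40 to 1.85, adjusted p = 7.4e-06) in −dox and 1.11 (0.88 to 1.33, adjusted p = 3.1e-05) in +dox cells. Its relative Rbl2 and the E2F partner Tfdp2 rose in +dox cells, by a log2 change of 0.95 and 0.73, whereas their −dox values of 0.37 and 0.30 did not pass.

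The mitosis genes gave a comparison with the next phase of the cycle. All 24 measured fell in both cell states, and their median log2 change was -2.78 in −dox and -1.90 in +dox cells, where that of the replication genes was -1.59 and -1.28. Whether these medians differ was not tested.

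Between +dox and −dox cells few members passed the test. Under DMSO 0 of 47 were lower in +dox than in −dox cells and 1 was higher (0 and 2 at an unadjusted p under 0.05), where 3.28% of all genes were called lower and 2.87% higher. The median log2 difference of +dox minus −dox was 0.16, against 0.01 over all genes. The called gene was Cdc25a, whose 3 +dox DMSO arrays (8.07, 8.21 and 8.15) all lay above the 3 −dox DMSO arrays (7.51, 7.60 and 7.62). The log2 difference was 0.57 (0.33 to 0.80, adjusted p = 0.011), and without +dox DMSO replicate 2 the adjusted p was 0.051. Pold1 (0.35, adjusted p = 0.25) and Pola1 (0.54, adjusted p = 0.32) were the other members whose arrays did not overlap between the cell states, so 3 of 47 were higher without overlap, where 11.3% of all genes were. Orc6, with the next smallest p, differed by 0.43 (adjusted p = 0.22) and its groups overlapped.

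Under trametinib 45 of 47 members had a positive log2 difference of +dox minus −dox, with a median of 0.50 against -0.02 over all genes, but 1 was called higher and 0 lower (16 and 0 at an unadjusted p under 0.05), where 1.95% of all genes were called higher and 1.42% lower. This comparison shares its −dox trametinib and +dox trametinib arrays with those above. Pola1, the called gene, was at 6.88, 6.47 and 6.22 in −dox and 7.71, 8.25 and 7.14 in +dox cells under the drug, with all +dox arrays higher. The log2 difference was 1.18 (0.56 to 1.80, adjusted p = 0.047). Dbf4 (1.16, adjusted p = 0.068) and Prim1 (0.93, adjusted p = 0.089) followed, also without overlap. In all, 10 members were higher without overlap, where 9.45% of all genes were. The call of Pola1 ended when any 1 of 9 arrays was left out (adjusted p up to 0.18) and held only without −dox DMSO replicate 1, −dox trametinib replicate 1 or +dox trametinib replicate 3. Leaving out +dox trametinib replicate 2 gave 0 calls and a median of 0.27, and leaving out replicate 3 gave 8 calls, with Mcm5, Mcm6, Mcm7, Mcm10, Prim1, Pole and Dbf4 added, and a median of 0.80.

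Whether trametinib acted differently in +dox cells was tested as the difference between its log2 changes, +dox minus −dox. No member passed in either direction (0 of 47 lower and 0 higher in limma, with 1 and 2 at an unadjusted p under 0.05), where 0.0715% of all genes were called lower and 0.258% higher. The difference was positive for 42 of 47 members, which is a smaller fall in +dox cells for those that fell, with a median of 0.32 against -0.02 over all genes. The smallest p belonged to Cdc25a, with a difference of -0.44 (-0.77 to -0.11, adjusted p = 0.26). Mcm7 followed with 0.90 (0.05 to 1.76, adjusted p = 0.40), from 12.04, 11.81 and 11.84 under −dox DMSO, 9.84, 9.16 and 9.36 under −dox trametinib, 11.70, 12.23 and 11.66 under +dox DMSO and 10.49, 10.81 and 9.67 under +dox trametinib. Prim1 (0.84, 0.02 to 1.66), Lig1 (0.75, -0.00 to 1.50) and Pole (0.83, -0.10 to 1.77) came next. Leaving out +dox trametinib replicate 2 gave a median of 0.09, and leaving out replicate 3 gave 0.56. The intervals allow differences from near none to over 1 log2 unit for these genes, so a like response in both cell states was not shown.

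A second look at the same genes came from their other probe sets. For 38 members there were 58 further probe sets, 40 of them above background. Of these 40, 30 were lower and 0 higher with trametinib in −dox cells and 27 lower and 0 higher in +dox cells by the test over all probe sets, with median log2 changes of -1.46 and -1.27. For 7 members a probe set above background differed from the one used by over 1 on the log2 scale in at least 1 cell state. Its change was smaller for Cdc7, Mcm3, Mcm10, Dut and Cdc45 and larger for Slbp and Orc1. It did not pass in either state for Cdc45 (-0.40 and -0.04) and Orc1, nor in +dox cells for Mcm10, Dut and Slbp. The 18 under background had medians of -0.03 and -0.11.

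**Figure D4:**
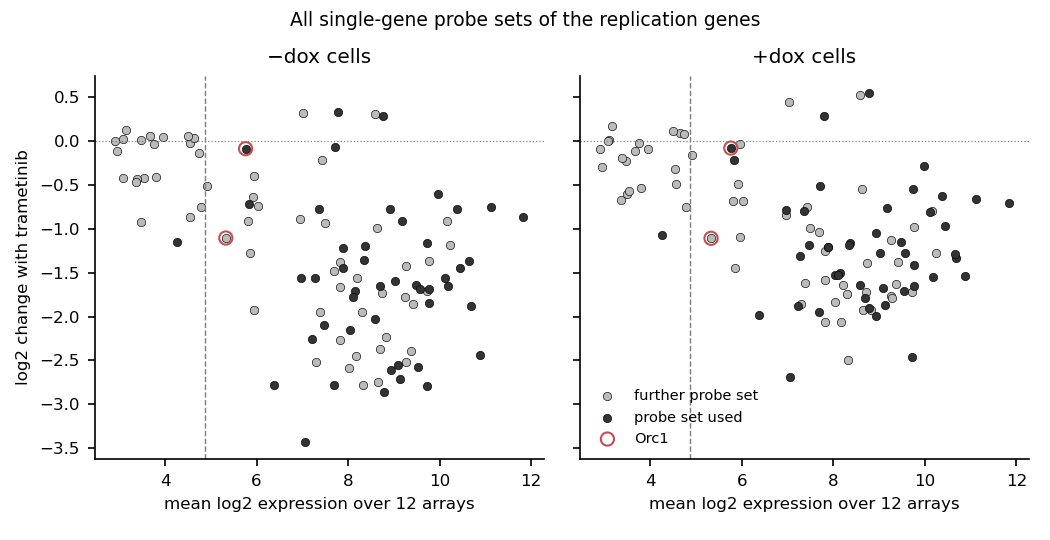
Log2 change with trametinib against mean log2 expression over the 12 arrays for all single-gene probe sets of the replication genes, in −dox (left) and +dox cells (right); black points are the probe sets used, grey points the 58 further ones, red rings the 2 for Orc1, and the dashed line is the background level of 4.87. Many grey points left of the line sit near 0, but others lie below it, down to -0.93 in −dox and -0.76 in +dox cells. Those right of the line mostly lie below 0 with the black ones.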

How the data were processed

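Total RNA of C790 cells was labelled and hybridised to 12 Affymetrix mouse genome arrays. The deposited values, which the authors made with RMA in Chipster, are log2 intensities per probe set and were used unchanged. Of 45101 probe sets, 64 controls, 932 with several genes and 9160 with none were left out. No filter on low values was applied, so all 47 members were tested. The model was limma 3.58.1 in R 4.3.3 (lmFit, eBayes), with 1 mean for each group over the whole set of 12 arrays, and Benjamini-Hochberg adjustment ran over 18193 genes. The number of arrays limits the precision. The members and lists were chosen with earlier results of these data known. Array values are given for the largest and smallest change in each role and for the smallest p-values of the dox comparisons and of the difference, and Cdc6, Ccne1, E2f1 and E2f2 were added after their values were seen. Arrays of the same replicate number were checked for shared deviations from the group means over all genes. The correlations were 0.25, 0.45 and 0.16 for trametinib in +dox cells, 0.34, 0.17 and 0.23 for dox under DMSO, 0.29, 0.21 and 0.27 for dox under trametinib, and 0.30, 0.46 and 0.02 for trametinib in −dox cells. The model above has no block. In the first 3 of these comparisons every correlation was over 0.1, so the blocked value stands beside a result whose call it changes. That evidence is from the data, since no label says so. Promoters came from RefSeq (GRCm38.p6). Where 1 group mean was below background, that level replaced it to give a bound. Alternatives tried were a block on the replicate number, only the arrays compared, the mean of probe sets, genes above background, quantile normalisation, median centring, array weights, a 2-fold threshold and leaving out each array.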

Additional observations from a re-analysis of the deposited data

How the results depend on the processing

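No called member changed sign under any of 19 alternatives in either trametinib comparison. In −dox cells 34 to 41 members fell when 1 array was left out and 42 with the replicate block, and in +dox cells 29 to 38 and 37. The calls of 7 members in each state ended without some array: Pcna, Prim2, Rrm1, Rrm2, E2f2, Dbf4 and Chaf1b in −dox cells (adjusted p up to 0.14) and Mcm10, Cdc6, Prim2, Pole2, Rpa1, Lig1 and Rrm1 in +dox cells (up to 0.11). The lowest +dox count was without +dox DMSO replicate 2. The median change in −dox cells was -1.28 with the mean of probe sets and -1.74 to -1.49 without 1 array, and in +dox cells -1.52 to -1.04 without 1 array. Of members higher with trametinib in +dox cells there was 1 (E2f1) with the replicate block and 0 to 1 without 1 array. Under DMSO the members higher in +dox cells numbered 4 with array weights, 0 over 2-fold and 0 to 1 without 1 array. Under trametinib they numbered 0 with only the arrays compared, 0 with the mean of probe sets, 8 with array weights, and 0 to 8 without 1 array, where leaving out −dox DMSO replicate 1 gave 2 and leaving out −dox trametinib replicate 1 gave 3. The medians under DMSO ran from -0.04 to 0.28 without 1 array. Orc1 turned in sign in −dox cells with median centring (0.043) and array weights (0.18) and had values of -0.24 to 0.098 without 1 array, and in +dox cells it turned with array weights (0.067) and had values of -0.29 to 0.025 without 1 array. The sign also turned for Cdc25a in −dox cells with quantile normalisation (0.01) and median centring (0.06). None of these passed a test. The cause was not tested. Median centring moved the median of all genes to 0.19 in −dox cells and the split of all genes from 1959 lower and 2113 higher to 1544 and 4193. In −dox cells Fen1 passed with the replicate block (adjusted p = 0.049) and array weights (0.0028). The replicate block changed the calls of Fen1, Tyms, Pcna and E2f1 among members and no other.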
